A study of Mus musculus with 6 samples.

Results

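The nuclei described here were adipocyte nuclei of mouse white adipose tissue with a high count of 4 genes of fatty acid synthesis. Adipocyte nuclei were those with at least 5 UMIs (unique molecular identifiers, each standing for 1 captured RNA molecule) summed over Adipoq, Plin1, Plin4, Lipe, Pparg and Acsl1 and at most 1 UMI summed over Ptprc, Skap1, Pecam1, Ptprb, Epcam and Upk3b, which mark immune, endothelial, epithelial and mesothelial cells. Members had at least 4 UMIs summed over Fasn, Acly, Elovl6 and Acaca, called the selecting genes below. This rule found 1510 members among 7527 adipocyte nuclei (20.1%), out of 27074 nuclei that passed the quality limits (more than 500 genes and more than 1000 UMIs, with less than 15% of UMIs from mitochondrial genes). The other 6017 adipocyte nuclei were the group of comparison.

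Single-nucleus RNA sequencing was used for 6 libraries from female C57BL/6J mice, with no genetic change or treatment named. The depots were inguinal fat, called subcutaneous adipose tissue (SAT), with 2 libraries from mice of 2 months and 2 from mice of 24 months, and gonadal fat, called visceral (VAT), with 2 libraries from mice of 24 months. The labels give 24 months where the design text gives 26, and VAT at 2 months was not analysed here. The study took both depots from 2 mice per age, so SAT and VAT libraries at 24 months may share mice, but which ones belong together is not stated. P-values measure the spread between these libraries. Values per library are given throughout in the order SAT at 2 months replicates 1 and 2, SAT at 24 months replicates 1 and 2, and VAT at 24 months replicates 1 and 2.

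White adipocytes store energy as triglyceride and can make fatty acids from glucose, a route known as de novo lipogenesis. Citrate leaves the mitochondrion, ATP citrate lyase (Acly) splits it into acetyl-CoA, acetyl-CoA carboxylase 1 (Acaca) turns acetyl-CoA into malonyl-CoA, fatty acid synthase (Fasn) builds palmitate, and Elovl6 lengthens it. Insulin and the transcription factors SREBP1c (Srebf1) and ChREBP (Mlxipl) are known to raise the genes of this route. Per the GENCODE annotation on GRCm39, Fasn (ENSMUSG00000025153) lies on chromosome 11 from 120696672 to 120715995 on the minus strand, and Acly (ENSMUSG00000020917) on the same chromosome from 100367165 to 100440756, also on the minus strand. Acaca (ENSMUSG00000020532) lies on chromosome 11 from 84020476 to 84292477 on the plus strand, and Elovl6 (ENSMUSG00000041220) on chromosome 3 from 129326004 to 129432144 on the plus strand. All are protein coding.

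Acaca gave most of the UMIs that chose the members. It held 58.7% of the selecting UMIs over all members, from 44.8% in SAT at 24 months replicate 2 to 78.2% in SAT at 24 months replicate 1. At least 1 UMI of Acaca was found in 93.5% of the members, of Fasn in 69.1%, of Acly in 37.9% and of Elovl6 in 28.3%. Of the 1510 members, 240 (15.9%) reached the threshold through Acaca alone, and 1219 had UMIs of at least 2 of the selecting genes. In SAT at 24 months replicate 1, 47.1% of its 34 members rested on Acaca alone, so its members are described more exactly as nuclei high in Acaca.

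The threshold cut through a continuous distribution. There were 674 adipocyte nuclei at 3 selecting UMIs, just outside it, and 412 at 4, just inside, and 663 members (43.9%) had 4 or 5. At the other end, 310 members had 12 or more and 145 had over 20. Of those over 20, 103 came from VAT replicate 1, in which the highest nucleus held 184.

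**Figure D1:**
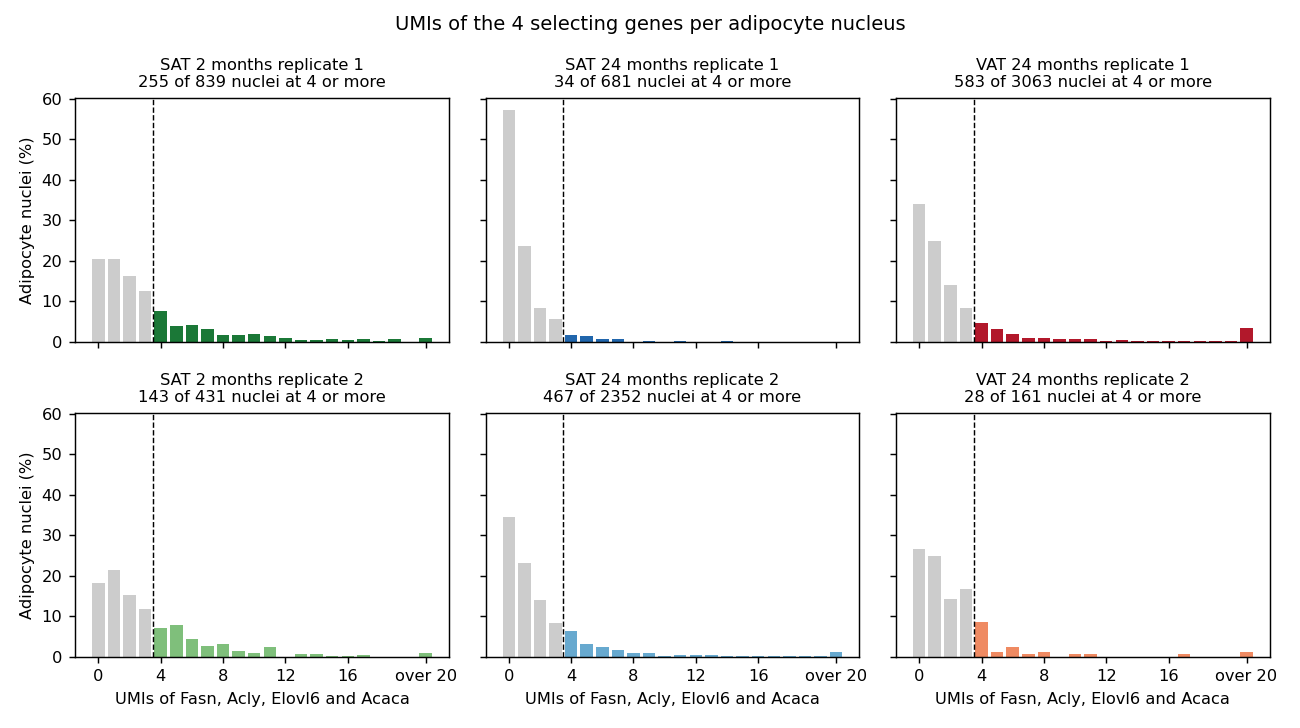
Percentage of adipocyte nuclei (y axis) at each summed UMI count of Fasn, Acly, Elovl6 and Acaca (x axis, with all nuclei over 20 in the last bar), 1 panel per library. Coloured bars to the right of the dashed line are the members. Counts fell off without a gap at the threshold, and VAT replicate 1 had the longest tail, with 103 of 3063 nuclei over 20.

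The level of the selecting genes among members is fixed by the rule and is given as a description. Levels are CPM, that is, counts per 1000000 UMIs of the summed nuclei. Fasn stood at 1070, 913, 151, 920, 541 and 476 CPM in the members of the 6 libraries, against 204, 216, 23.0, 134, 43.0 and 137 CPM in the other adipocyte nuclei. Acaca stood at 2010, 2310, 1200, 1050, 2330 and 1050 CPM in members. Acly was between 103 and 199 CPM in the members of 5 libraries and at 438 CPM in VAT replicate 1. Elovl6 had 330 CPM in VAT replicate 1 and only 8.81 CPM in VAT replicate 2, where the other adipocyte nuclei had 23.8. When every UMI was put at random into 1 of 2 parts, and nuclei with at least 2 selecting UMIs were chosen on the first, the other part held 2.83, 2.64, 2.86, 3.38, 6.07 and 1.34 times the CPM of the nuclei not chosen. In the part used for choosing, these ratios were 7.52, 6.75, 8.1, 7.77, 13.6 and 5.65. The median held-out ratio was 2.84.

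Members were also the deeper nuclei, and the threshold is a number of UMIs and not a share. The median member held 2230, 1817, 3212, 2849, 3064 and 3536 UMIs, and the median other adipocyte nucleus held 1687, 1426, 1775, 1823, 2104 and 1991. Of the members, 1494 (98.9%) could be matched to another adipocyte nucleus of the same library within 10% of its UMIs outside the selecting genes. These matched pairs were used as an alternative comparison. The median mitochondrial share was lower in members than in other nuclei in 5 libraries, but in SAT at 24 months replicate 2 it was 3.73% against 1.93%. Immune nuclei, taken as a background, reached 4 selecting UMIs in 0.615% to 2.0% of nuclei at median depths of 1296 to 1526 UMIs. Total depth was 8061862 to 16226690 UMIs per library, and any pair of libraries had at most 0.769% of the smaller one's barcodes in common.

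Of the 14 adipocyte markers that the rule did not use, 1 (Pde3b, a phosphodiesterase that insulin uses to restrain lipolysis) was called higher in members and 0 lower. Over all genes tested, 0.66% were called higher and 0.608% lower. The Pde3b call was lost without VAT replicate 1 and in the matched pairs. Adipoq, the adipocyte hormone adiponectin, helped to choose all adipocyte nuclei and is given as a description: it was at 1120, 1040, 374, 1920, 523 and 591 CPM in members and at 1200, 1080, 451, 1260, 523 and 882 CPM in others. None of the 44 tested markers of mammary epithelium, macrophages, T cells, B cells, endothelium, FAPs (fibro-adipogenic progenitors), smooth muscle, skeletal muscle or ovary, or of RNA quality, was called in either direction by edgeR. This is near the share over all genes. Only 1 of 8 T cell, 1 of 8 ovary, 2 of 10 endothelial and 5 of 18 mammary markers could be tested. Macrophage and FAP markers were tested in 7 of 10 and 10 of 11, and mesothelial markers in 0 of 7. The median log2 differences of these lists ran from -0.45 for smooth muscle and skeletal muscle to 0.15 for T cells.

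The share of members was highest in SAT at 2 months. Members made up 255 of 839 adipocyte nuclei (30.4%, exact 95% interval 27.3 to 33.6) and 143 of 431 (33.2%, 28.7 to 37.8) in the 2 libraries of SAT at 2 months. In SAT at 24 months they were 34 of 681 (4.99%, 3.48 to 6.91) and 467 of 2352 (19.9%, 18.3 to 21.5), so its 2 libraries differed by more than their counting error. In VAT at 24 months they were 583 of 3063 (19.0%, 17.7 to 20.5) and 28 of 161 (17.4%, 11.9 to 24.1). Intervals cover counting error only. The mean share in SAT was 31.8% ± 1.97 (SD, n = 2) at 2 months and 12.4% ± 10.5 (SD, n = 2) at 24 months. The older mice thus differed by -19.4 percentage points (two-sided exact permutation test over libraries, p = 0.33, the smallest that 2 against 2 allow). The age groups did not overlap. The mean share in VAT at 24 months was 18.2% ± 1.16 (SD, n = 2), 5.79 points above SAT of that age (exact permutation test, two-sided, p = 1), and the SAT libraries lay on either side of both VAT libraries.

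Thinning every nucleus to 1000 UMIs, which no nucleus fell short of, kept the order of ages in SAT. The shares became 12.6%, 17.4%, 1.32%, 5.99%, 7.54% and 1.86%, and the difference of SAT at 24 from 2 months became -11.4 percentage points (n = 2 each, with an SD of 3.30 and 3.37 points; exact permutation test, p = 0.33). In immune nuclei the thinned share was at most 0.368%. The difference between depots at 24 months became 1.04 points.

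**Figure D2:**
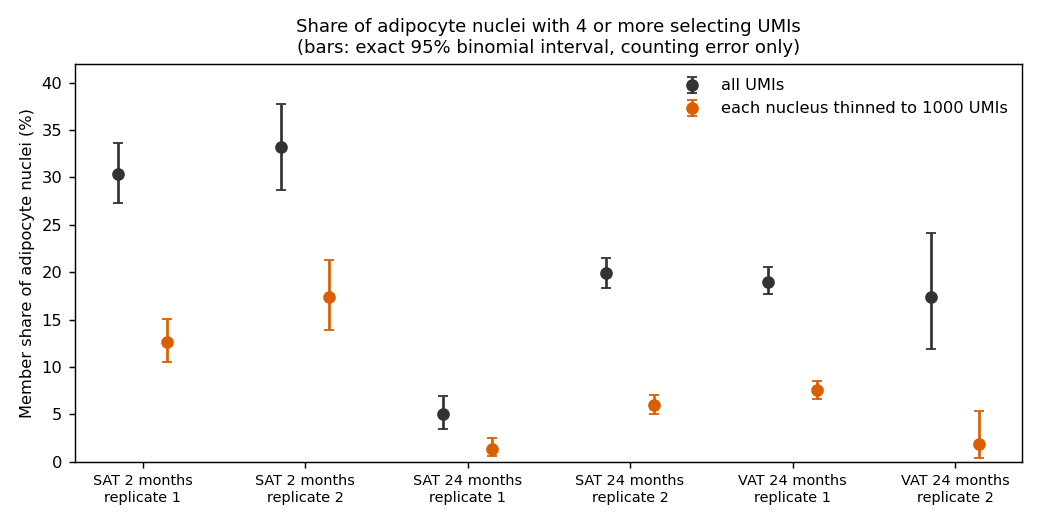
Share of adipocyte nuclei that were members (y axis, %) in each of the 6 libraries (x axis), with all UMIs (black) and after thinning each nucleus to 1000 UMIs (orange). Bars are exact 95% binomial intervals and cover counting error only. Both SAT libraries at 2 months lie above all libraries at 24 months in either measure, and SAT at 24 months replicate 1 is the lowest.

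Members were then compared with the other adipocyte nuclei within each library, leaving out the selecting genes. Counts were summed over members and over others in each library and fitted by edgeR with the library as a block. Of 9544 genes tested, 63 (0.66%) were called higher in members and 58 (0.608%) lower, at an adjusted p under 0.05. Of the 18 tested of 20 listed partners of fatty acid synthesis, which are enzymes and carriers that feed or follow fatty acid synthase, 7 were called higher, 0 lower and 11 in neither direction, and their median log2 difference was 0.31 against -0.01 over all genes tested. Of 16 lipogenic regulators 4 were called higher, and of 13 genes of triglyceride assembly 4 were called higher, with medians of 0.21 and 0.34. Neither list had a gene called lower. Of all 121 calls, 73 had the same direction in all 6 libraries.

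Of the single libraries, VAT replicate 1 changed the number of calls most when left out. Without it, 30 of 8028 genes were called, 2 of the 18 partners among them, although the partners' median log2 difference was again 0.31 and all 114 of the main calls that could be tested kept their direction. The calls numbered 71 without SAT at 2 months replicate 1 and 70 without SAT at 24 months replicate 2. DESeq2 called 60 genes, with 3 of the 18 partners and 1 of the 16 regulators, and gave no adjusted p for 50 of the 121 genes. Leaving out the 310 members of 12 or more selecting UMIs gave 65 calls, with 3 of the 18 partners, and the pairs matched in UMIs gave 77 calls, with 6 of 15 partners.

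Slc25a1, the mitochondrial citrate carrier that supplies Acly with its substrate, was higher in members of all 6 libraries. Its levels were 148, 161, 63.7, 88.0, 80.9 and 44.1 CPM in members and 92.9, 127, 30.4, 42.6, 24.3 and 38.6 CPM in others, a log2 difference of 0.99 ± 0.17 (SE; edgeR, adjusted p = 0.000505). The separation was widest in VAT replicate 1 and narrowest in VAT replicate 2. Without VAT replicate 1 the log2 difference was 0.73 and the call was lost (adjusted p = 0.0877).

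Me1, the malic enzyme that makes NADPH for fatty acid synthesis, and Tkt, the transketolase of the pentose phosphate route, were called higher as well. Me1 was at 146, 175, 239, 294, 472 and 150 CPM in members and 84.0, 120, 140, 150, 121 and 152 CPM in others (log2 difference 1.05 ± 0.15 SE, adjusted p = 4.7e-05). Tkt was at 590, 405, 159, 463, 454 and 264 CPM against 366, 334, 105, 212, 104 and 261 CPM (0.97 ± 0.15 SE, adjusted p = 0.000196). In VAT replicate 2, with 28 members, the levels of both genes lay within 3 CPM of each other. Both calls held without VAT replicate 1, without members of 12 or more UMIs and in matched pairs. The log2 differences were then 0.71, 0.61 and 1.11 for Me1 and 0.64, 0.52 and 1.1 for Tkt. G6pdx, the entry enzyme of the pentose phosphate route, had a log2 difference of 0.23 ± 0.15 (SE; adjusted p = 0.698).

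Other sources of cytosolic acetyl-CoA were higher too. Aacs, which activates the ketone body acetoacetate, was at 315, 415, 95.5, 52.6, 186 and 70.5 CPM in members and 218, 299, 77.2, 40.6, 93.2 and 50.5 CPM in others (0.60 ± 0.12 SE, adjusted p = 0.00575). Acss2, which activates acetate, was at 153, 227, 175, 89.8, 514 and 70.5 CPM against 153, 190, 92.0, 71.2, 103 and 80.2 CPM (0.83 ± 0.20 SE, adjusted p = 0.0191). The Acss2 difference was mostly that of VAT replicate 1, and both calls were lost without this library, where the log2 difference was 0.28 for Acss2 and 0.45 for Aacs, and without members of 12 or more UMIs. DESeq2 called Aacs and not Acss2 (adjusted p = 0.251).

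Of the enzymes acting after Fasn, the desaturase Scd1 and the elongation enzyme Hsd17b12 were called. Scd1 was at 1830, 2730, 207, 8100, 1200 and 1140 CPM in members and 1060, 2070, 519, 3560, 650 and 731 CPM in others (0.59 ± 0.14 SE, adjusted p = 0.022), and thus lower in the members of SAT at 24 months replicate 1 and higher in those of the other 5 libraries. Hsd17b12 had a log2 difference of 0.48 ± 0.13 (SE; adjusted p = 0.0465). Both calls were lost without VAT replicate 1 (0.51 for Scd1 and 0.34 for Hsd17b12), without SAT at 24 months replicate 2, by DESeq2 (adjusted p = 0.689 and 0.0856) and without members of 12 or more UMIs, and that of Hsd17b12 also in matched pairs (adjusted p = 0.0712).

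Among the regulators, Insig1 had the largest difference. Insig1 holds the SREBP precursors in the endoplasmic reticulum and is itself a target of SREBP. It was at 55.2, 68.7, 55.7, 69.4, 61.4 and 35.3 CPM in members and 27.7, 43.7, 17.1, 25.3, 16.3 and 32.7 CPM in others (1.35 ± 0.21 SE, adjusted p = 0.000125). Members were higher in every library, and the call held without VAT replicate 1, in matched pairs and without members of 12 or more UMIs. DESeq2 gave it no adjusted p.

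Pnpla3, a lipase-like protein of lipid droplets, had a log2 difference of 0.70 ± 0.15 (SE; adjusted p = 0.00695), with 453 against 141 CPM in VAT replicate 1 and 158 against 155 CPM in SAT at 2 months replicate 2. Thrsp, a nuclear protein tied to lipogenesis, had 0.65 ± 0.14 (SE; adjusted p = 0.00822), and Ppargc1b, a coactivator of SREBP, had 0.54 ± 0.14 (SE; adjusted p = 0.0321). Without VAT replicate 1 all 3 calls were lost, with log2 differences of 0.38 for Pnpla3, 0.41 for Thrsp and 0.36 for Ppargc1b (adjusted p = 0.406, 0.32 and 0.667), and in the matched pairs that of Pnpla3 was lost (adjusted p = 0.107). DESeq2 called Pnpla3, and neither Thrsp (adjusted p = 0.156) nor Ppargc1b (adjusted p = 0.0842). Srebf1 did not pass, at 692, 821, 175, 297, 378 and 132 CPM in members and 601, 755, 165, 195, 182 and 149 CPM in others (0.43 ± 0.12 SE, adjusted p = 0.0551), but did in the matched pairs (adjusted p = 0.0212). Mlxipl had a log2 difference of 0.18 ± 0.10 (SE; adjusted p = 0.597).

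Triglyceride assembly joins fatty acids to glycerol 3-phosphate. Gpd1, which makes glycerol 3-phosphate, was at 205, 285, 207, 287, 580 and 123 CPM in members and 182, 260, 107, 135, 156 and 137 CPM in others (0.88 ± 0.16 SE, adjusted p = 0.00135), so that the members of VAT replicate 2 lay below the others. Dgat2, which adds the last fatty acid, was at 849, 670, 541, 1000, 555 and 740 CPM against 689, 528, 306, 681, 370 and 663 CPM (0.46 ± 0.10 SE, adjusted p = 0.00726). Agpat2, an acyltransferase of this route, and Bscl2 (seipin, of droplet formation) were called with 0.55 and 0.43. Without VAT replicate 1 none of these 4 calls of edgeR remained, at log2 differences of 0.43 for Dgat2 and 0.37 for Bscl2, close to those with all libraries, and of 0.53 for Gpd1 and 0.28 for Agpat2. DESeq2 did not call Agpat2 (adjusted p = 0.279). In the matched pairs, Dgat2 (adjusted p = 0.0724) and Bscl2 (adjusted p = 0.314) were not called. The acyltransferase Gpam, at 0.35 ± 0.10 (SE; adjusted p = 0.0921), did not pass.

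Acacb, the mitochondrial acetyl-CoA carboxylase 2 whose malonyl-CoA restrains the import of fatty acids for oxidation, was the 1 gene called of 15 tested genes of malonyl-CoA and fatty acid oxidation. It was at 2000, 2620, 87.5, 128, 739 and 159 CPM in members and 1520, 1790, 148, 87.1, 167 and 80.2 CPM in others (0.80 ± 0.16 SE, adjusted p = 0.00465). In SAT at 24 months replicate 1, members lay below others. Without VAT replicate 1 its log2 difference was 0.43 (adjusted p = 0.246), which left 0 of the 15 genes called, and DESeq2 did not call it (adjusted p = 0.487). Of 19 tested genes of insulin action and glucose use, Aldoa (aldolase A of glycolysis, a symbol that several identifiers share and of which 1 was tested) and the pyruvate dehydrogenase subunits Pdhb and Dlat were called higher, with log2 differences of 0.71, 0.70 and 0.62. Pdhb was at 122, 75.5, 7.96, 136, 101 and 79.3 CPM in members and 75.0, 65.5, 55.7, 70.7, 47.7 and 53.5 CPM in others. All 3 calls were lost without VAT replicate 1 (log2 differences of 0.56, 0.52 and 0.47 and adjusted p = 0.119, 0.527 and 0.405 for Aldoa, Pdhb and Dlat) and without members of 12 or more UMIs.

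Of 12 tested genes of lipolysis and the lipid droplet, 2 were called higher and 0 lower, with a median log2 difference of 0.16. Cidea, a lipid droplet protein abundant in brown and beige adipocytes, was at 17.9, 61.8, 15.9, 10.5, 124 and 8.81 CPM in members and 23.2, 52.4, 2.23, 3.69, 8.0 and 0 CPM in others (1.89 ± 0.40 SE, adjusted p = 0.00822). It was also the 1 gene called of 4 tested of 12 thermogenic genes, whose median was 0.55. The levels of VAT replicate 2 and of members of SAT at 24 months replicate 1 rest on 0 to 2 UMIs of Cidea, and without VAT replicate 1 or in matched pairs it was too low to be tested. Pde3b had a log2 difference of 0.39 ± 0.09 (SE; adjusted p = 0.0184) and was higher in members of all 6 libraries, and its call was lost without VAT replicate 1, at a log2 difference of 0.40 (adjusted p = 0.123), and in matched pairs, at 0.33 (adjusted p = 0.101).

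Of 11 tested genes of fatty acid uptake, 0 were called, and their median log2 difference was 0. Lpl, the lipase that frees fatty acids from circulating lipoproteins, had 0.24 ± 0.09 (SE; adjusted p = 0.261), and the transporter Cd36 had 0.05 ± 0.09 (SE; adjusted p = 0.93). Of 14 tested genes of cholesterol synthesis, 0 were called, with a median of 0.28, above that of all genes. Of 12 clock genes, 0 were called. Of 13 adipokines and other secreted factors, 1 was called, namely Nrg4, a secreted ligand of ErbB receptors. Nrg4 was at 978, 1040, 692, 362, 919 and 203 CPM in members and 622, 631, 517, 250, 658 and 187 CPM in others (0.53 ± 0.10 SE, adjusted p = 0.00138), higher in all 6 libraries, and remained called without VAT replicate 1.

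**Figure D3:**
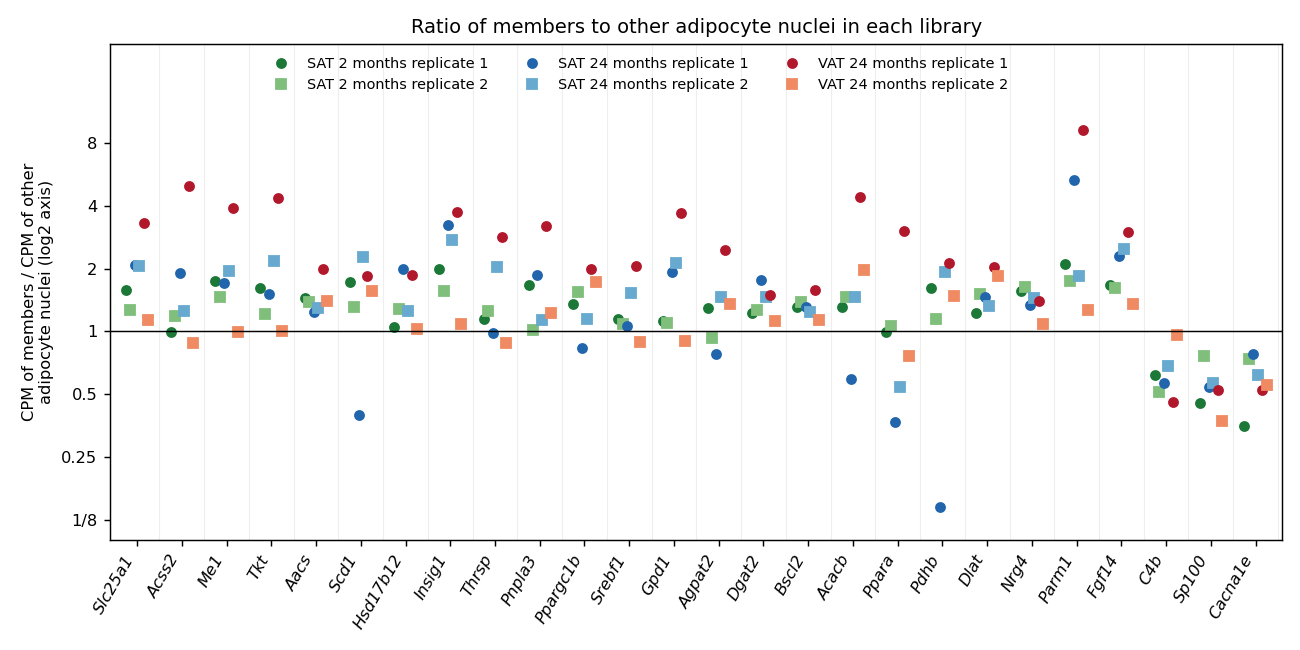
CPM of members divided by CPM of the other adipocyte nuclei (y axis, log2 scale, 1 marks equality) for 26 genes (x axis), with 1 point per library. VAT replicate 1 gave the highest ratio for most lipogenic genes, and Parm1, Fgf14, Insig1 and Nrg4 lay above 1 in all 6 libraries.

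By size among calls with 1 direction in all libraries, Aspg, Parm1, Insig1, Atp5j, Fgf14, Slc25a1, Tkt, Atp5h, Mcrip2 and Lncbate1 led the genes higher in members. Fgf14, an intracellular protein of the fibroblast growth factor family that binds sodium channels, was at 841, 896, 71.6, 83.6, 355 and 88.1 CPM in members and 505, 554, 31.2, 33.4, 118 and 65.4 CPM in others (1.06 ± 0.13 SE, adjusted p = 2.9e-06). Its ratio was between 1.35 and 3.0 in every library although its level differed widely between them, and the call held in each of the settings named above and by DESeq2. Parm1, a membrane mucin-like protein, was at 73.1, 68.7, 183, 56.4, 125 and 26.4 CPM against 34.8, 39.3, 34.1, 30.4, 13.4 and 20.8 CPM (1.76 ± 0.24 SE, adjusted p = 2.85e-05). Aspg, an asparaginase-like enzyme, was at 283, 223, 7.96, 3.1, 125 and 17.6 CPM against 139, 127, 0.742, 2.77, 8.64 and 0 CPM (1.83 ± 0.29 SE, adjusted p = 0.000196), and its level in members of SAT at 24 months replicate 1 was 1 UMI. Atp5j and Atp5h, subunits of the mitochondrial ATP synthase, had log2 differences of 1.10 and 0.93. Their highest levels, 66.3 and 101 CPM, were in the members of SAT at 24 months replicate 2, whose mitochondrial share was also the highest among members; the part of that share in the difference was not tested. Among these 10 genes, Aspg was too low to be tested without VAT replicate 1 and in matched pairs and was not called at 4 to 11 UMIs (adjusted p = 0.0604). Atp5j was too low to be tested in these settings and lost its call in 6 of the 14 alternatives that tested it. Atp5h kept its call in 10 alternatives and lost it in 9. Among these were those without SAT at 24 months replicate 2 (0.79, adjusted p = 0.333) and at 4 to 11 UMIs (0.84, adjusted p = 0.0836). Mcrip2, at 0.89 with all libraries, was not called at 0.86 without VAT replicate 1 (adjusted p = 0.161). Lncbate1 lost its call in 15 of 19 alternatives, the matched pairs among them.

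Genes lower in members, again by size among calls with 1 direction in all libraries, were led by Epsti1, Adam3, Trdn, Slc9a9, Ltb, Sp100, Rftn1, Thsd7b, Cacna1e and C4b. Epsti1 and Sp100 are known as interferon-induced genes, and C4b encodes complement component 4. Epsti1 was at 27.6, 41.2, 0, 9.91, 3.72 and 8.81 CPM in members and 128, 93.9, 49.0, 36.9, 7.2 and 29.7 CPM in others (-1.76 ± 0.26 SE, adjusted p = 6.8e-05). Sp100 was at 47.1, 124, 87.5, 48.3, 47.4 and 35.3 CPM against 104, 162, 161, 85.0, 91.0 and 95.1 CPM (-0.87 ± 0.15 SE, adjusted p = 0.000505). C4b was at 463, 378, 207, 227, 224 and 317 CPM against 750, 738, 364, 334, 489 and 330 CPM (-0.76 ± 0.11 SE, adjusted p = 6.8e-05). All 3 stayed called without VAT replicate 1. In the matched pairs Sp100 was called, C4b was not and Epsti1 was too low to be tested. Slc9a9, Ltb, Rftn1 and Thsd7b were not called without VAT replicate 1 (adjusted p = 0.0925, 0.123, 0.09 and 0.212), although their log2 differences were then -1.09, -0.87, -0.98 and -0.79 against -0.95, -0.88, -0.84 and -0.81 with all libraries, nor were Slc9a9, Rftn1 and Thsd7b in the matched pairs, and the call was lost in 15 of 18 alternatives for Ltb, in 12 of 19 for Rftn1, in 11 of 17 for Trdn and in 4 of 11 for Adam3, which was too low to be tested without VAT replicate 1 and in matched pairs. Ltb is a lymphocyte gene, and the summed T cell markers stood at 205, 371, 79.6, 10.5, 10.7 and 26.4 CPM in members and 237, 502, 42.3, 31.6, 12.8 and 47.5 CPM in others. The 3 tested B cell markers had a median log2 difference of -0.42, and the 1 tested T cell marker had 0.15. The part of immune RNA in the lower genes was not tested. Cacna1e, a calcium channel subunit, was at 16.2, 24.0, 613, 227, 261 and 123 CPM against 46.5, 32.7, 788, 366, 501 and 223 CPM (-0.77 ± 0.13 SE, adjusted p = 0.000261).

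The members themselves were not uniform, and the nuclei with the most selecting UMIs differed most from other adipocytes. This is a description of libraries with at least 20 nuclei in a range, with no test. In VAT replicate 1 the summed level of the partners of fatty acid synthesis was 2310 CPM in nuclei with 0 selecting UMIs, 2400 at 1 to 3, 2550 at 4 to 5, 3170 at 6 to 11 and 10400 at 12 or more. In SAT at 24 months replicate 2 the same sums were 4860, 5650, 8010, 9070 and 19900 CPM. In SAT at 2 months replicate 1 they were 3020, 3430, 4280, 5180 and 5250 CPM, without a step at 12. Members with 12 or more UMIs made up 29.0% of the members of VAT replicate 1 (169 nuclei), 17.1% in SAT at 24 months replicate 2 (80 nuclei) and 16.9% in SAT at 2 months replicate 1 (43 nuclei), and numbered 14, 1 and 3 in the remaining libraries.

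The 169 nuclei of VAT replicate 1 carried RNA of thermogenic genes. Cidea was at 449 CPM there against 8.0 CPM in nuclei of that library with 0 to 3 selecting UMIs. Ucp1, the uncoupling protein of brown and beige adipocytes, was at 175 against 5.92 CPM. A UMI of Ucp1 was found in 43 of the 169 nuclei (25.4%, exact 95% interval 19.1 to 32.7) and of Cidea in 64 (37.9%, 30.5 to 45.6). At least 1 UMI of Ucp1, Cidea or Elovl3 was found in 44.4%, against 9.77% at 6 to 11 selecting UMIs, 3.33% at 4 to 5 and 2.54% at 0 to 3, at median depths of 2494, 3634, 3337 and 2104 UMIs. After thinning to 1000 UMIs these shares were 32.0%, 6.32%, 1.67% and 1.25%. Immune nuclei of this library had a UMI of these genes in 0 of 50 (exact 95% interval up to 7.11%).

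Lipogenic genes also stood higher in these nuclei than at 0 to 3 selecting UMIs. Acss2 stood at 1490 against 103 CPM, Tkt at 1470 against 104 CPM, Me1 at 1410 against 121 CPM and Gpd1 at 1530 against 156 CPM. Acacb stood at 2040 against 167 CPM, and Ppara, the nuclear receptor that drives fatty acid oxidation, at 1260 against 168 CPM. Angptl8, an insulin-induced secreted factor, stood at 113 against 5.28 CPM, and Ppp1r3b, which directs glycogen synthesis, at 264 against 10.7 CPM. The summed adipocyte markers outside the rule were lower, at 23300 CPM against 33500 at 1 to 3 selecting UMIs. Between 4 and 11 selecting UMIs, where 414 of the members of this library lay, Ucp1 was at 4.39 and 13.6 CPM in the lower and upper range.

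In SAT at 24 months replicate 2, the 80 nuclei of 12 or more UMIs had 16100 CPM of Scd1 against 3560 at 0 to 3, 168 against 25.3 CPM of Insig1 and 211 against 31.8 CPM of Scd2. Of the thermogenic genes, Cox8b stood at 123 against 8.07 CPM and Cidea at 16.2 against 3.69 CPM. At least 1 UMI of Ucp1, Cidea or Elovl3 was found in 5 of the 80 (6.25%) against 0.637% at 0 to 3, and after thinning in 0 of 80, which allows a share of nuclei with a UMI of up to 3.75%, against 0.477%. Their median mitochondrial share was 7.1% against 1.93%, ribosomal protein genes such as Rpl41 were at 405 against 89.9 CPM, and the summed FAP markers at 9280 CPM against 5470 and 5480 in nuclei of 0 and of 1 to 3 selecting UMIs; the part of these values in the lipogenic levels was not tested. In SAT at 2 months replicate 1, the 43 such nuclei had 158 against 34.8 CPM of Parm1, 241 against 67.9 CPM of Pnpla3 and 457 against 139 CPM of Aspg. At least 1 UMI of Ucp1, Cidea or Elovl3 was found in 5 of the 43 (11.6%) against 2.4% at 0 to 3, and after thinning in 2.33% against 2.05%.

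**Figure D4:**
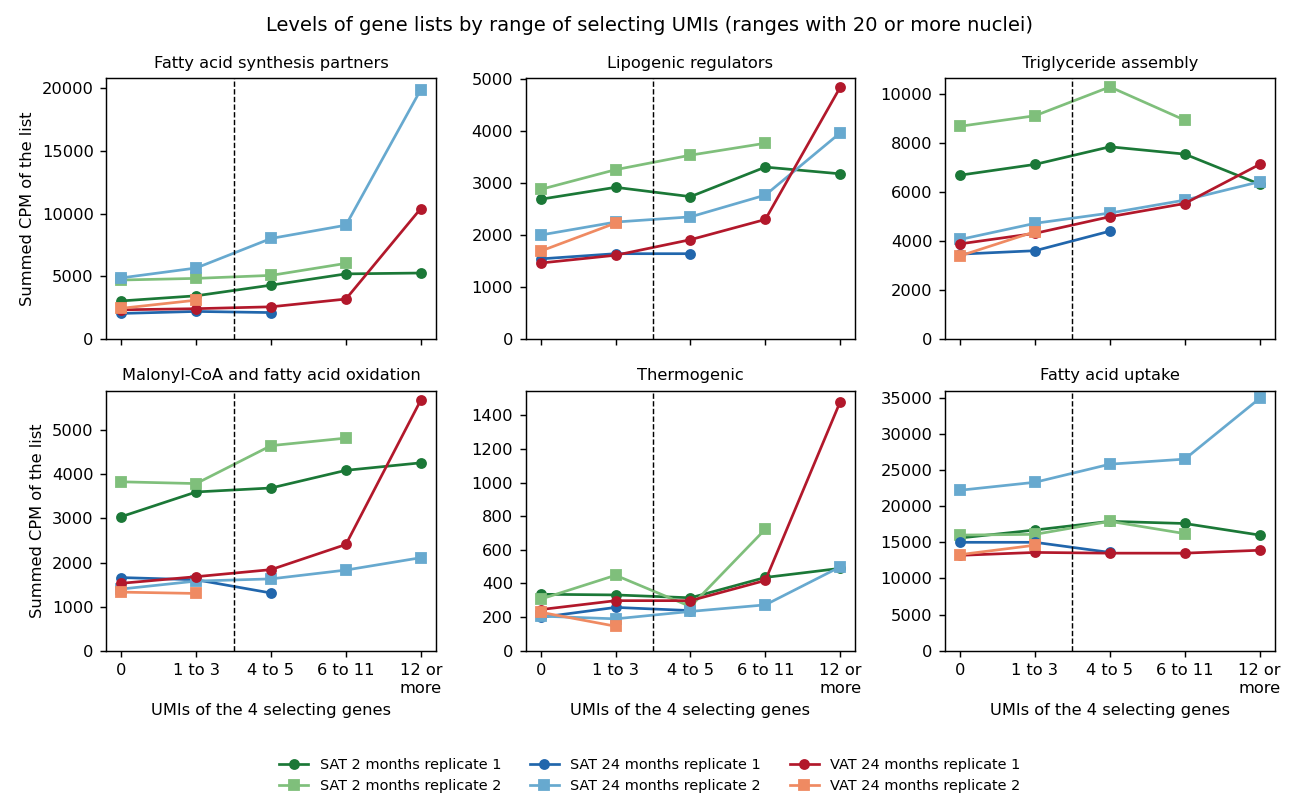
Summed CPM (y axis, starting at 0) of 6 gene lists in adipocyte nuclei grouped by their selecting UMIs (x axis), 1 line per library, for ranges with at least 20 nuclei. Members lie to the right of the dashed line. Thermogenic genes and genes of malonyl-CoA and fatty acid oxidation had their highest sums at 12 or more UMIs in VAT replicate 1 (thermogenic 1480 CPM), and so had fatty acid synthesis partners in VAT replicate 1 and SAT at 24 months replicate 2 (10400 and 19900 CPM).

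Whether members differed from other adipocyte nuclei in the same way at both ages was tested by an interaction in the SAT libraries. Of 9544 genes, 3 (0.0314%) were called with a positive interaction, a log2 difference of members from others that was higher at 24 than at 2 months, and 5 (0.0524%) with a negative one. None of the partners of fatty acid synthesis or lipogenic regulators was among them by edgeR, and 393 of all genes had an unadjusted p under 0.05. Dpt, an extracellular matrix protein of fibroblasts, was at 29.2 and 24.0 CPM in members at 2 months against 83.1 and 43.7 CPM in others, and at 63.7 and 313 CPM at 24 months against 43.0 and 156 CPM (interaction log2 2.23 ± 0.47 SE, adjusted p = 0.0035). The summed FAP markers, to which fibroblast genes belong, were at 2310, 1700, 1690 and 7270 CPM in the members of the 4 SAT libraries and 2540, 1820, 2480 and 5480 CPM in others. Lrp1b, a lipoprotein receptor, was at 185 and 216 against 175 and 188 CPM at 2 months, and at 7.96 and 16.1 against 36.4 and 58.5 CPM at 24 months (-2.01 ± 0.47 SE, adjusted p = 0.0214). Atg4a, a protease of autophagy, was at 94.2 and 127 against 77.7 and 85.1 CPM, and at 151 and 82.4 against 299 and 228 CPM (-1.73 ± 0.35 SE, adjusted p = 0.00163). Pcdh15 and Csmd1 were also called, but in SAT at 24 months replicate 1 a single nucleus held 101 of 101 Pcdh15 UMIs of the members, and 1 nucleus held 101 of 104 Csmd1 UMIs. The remaining 3 calls were predicted genes. DESeq2 called 0 genes in this interaction. Leaving out SAT at 2 months replicate 1 gave 0 calls by edgeR, SAT at 2 months replicate 2 gave 2, SAT at 24 months replicate 1 gave 17 and VAT replicate 2 gave 13.

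Between the depots at 24 months the interaction called 3 genes (0.0314%) with a log2 difference of members from others that was higher in VAT than in SAT and 2 (0.021%) with a lower one. Ppara was at 47.7 and 48.9 CPM in SAT members against 130 and 90.8 CPM in others, and at 508 and 79.3 CPM in VAT members against 168 and 104 CPM (interaction log2 2.21 ± 0.32 SE, adjusted p = 4.82e-08). Acacb was at 87.5 and 128 against 148 and 87.1 CPM in SAT and at 739 and 159 against 167 and 80.2 CPM in VAT (1.65 ± 0.27 SE, adjusted p = 3.62e-06). Acss2 was the third, at 175 and 89.8 against 92.0 and 71.2 CPM in SAT and 514 and 70.5 against 103 and 80.2 CPM in VAT (interaction log2 1.36). For Ppara and Acss2, the members of VAT replicate 2 lay below the other adipocyte nuclei, unlike those of VAT replicate 1. The 2 genes with a negative interaction were Pcdh15 and Csmd1 again. Without VAT replicate 1 no gene was called by edgeR, and DESeq2 called 0 with all libraries, against 266 genes at an unadjusted p under 0.05 by edgeR. Leaving out SAT at 2 months replicate 1 gave 3 calls, SAT at 24 months replicate 1 gave 21 and SAT at 24 months replicate 2 gave 14.

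Within members, SAT at 24 months was compared with SAT at 2 months. Of 8573 genes tested, 324 (3.78%) were called higher at 24 months and 306 (3.57%) lower. In the other adipocyte nuclei of the same libraries, 646 of 12227 genes (5.28%) were called higher and 637 (5.21%) lower. Higher genes made up 50.4% of the calls in these others, and 37.0% when scaled by library size in place of TMM, which shifted the median of all genes by -0.15 on the log2 scale, and 51.4% and 47.6% of the calls in members. The 2 comparisons share their libraries, so their values are set side by side without a test between them. In members, 193 genes were called without SAT at 2 months replicate 1, 212 without SAT at 2 months replicate 2 and 1149 without SAT at 24 months replicate 1. In others, 523 were called without the first of these libraries and 382 without the second. The selecting genes are left out here, because the rule bounds their level in members and in others.

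Acacb fell with age in members. Its 2000 and 2620 CPM at 2 months became 87.5 and 128 CPM at 24 months (log2 difference -4.27 ± 0.55 SE, adjusted p = 0.000144), and its 1520 and 1790 CPM in other adipocyte nuclei became 148 and 87.1 CPM (-3.65 ± 0.41 SE, adjusted p = 0.000155). Ppara went from 336 and 532 to 47.7 and 48.9 CPM in members (-3.08 ± 0.59 SE, adjusted p = 0.00364) and from 339 and 504 to 130 and 90.8 CPM in others (-1.76 ± 0.34 SE, adjusted p = 0.00466). Aacs fell by 2.41 on the log2 scale in members and by 1.99 in others, and Srebf1 fell by 1.55 (adjusted p = 0.0319) and by 1.75 (adjusted p = 0.00164). The Srebf1 call in members was lost without either library of SAT at 2 months (adjusted p = 0.121 and 0.16). No library of one age overlapped with the other for these genes, in members or in others.

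Other lipid genes moved in both directions. Among the partners of fatty acid synthesis, 2 of 18 rose in members at 24 months and 1 fell. G6pdx, which starts the pentose phosphate route, went from 37.4 and 24.0 to 167 and 151 CPM (2.36 ± 0.42 SE, adjusted p = 0.00223), and the desaturase Scd2 from 4.87 and 10.3 to 15.9 and 88.6 CPM (3.29 ± 0.74 SE, adjusted p = 0.0101). In other adipocyte nuclei Scd2 had a log2 difference of 0.03 ± 0.58 (SE), and the interaction, at 3.11 ± 0.80 (SE; adjusted p = 0.102), did not pass. The Scd2 call in members was lost without SAT at 24 months replicate 2 (log2 difference 1.25, adjusted p = 0.713), without SAT at 2 months replicate 1, by DESeq2 and with members chosen by Fasn, Acly and Elovl6 alone. Of 13 genes of triglyceride assembly, Gpam and the phosphatase Lpin1 fell, by 1.29 and 2.06 on the log2 scale, and 0 rose. Of 13 genes of lipolysis and the lipid droplet, G0s2, an inhibitor of triglyceride lipase, the monoglyceride lipase Mgll and the natriuretic peptide clearance receptor Npr3 rose, and 0 fell. Npr3 went from 119 and 65.2 to 1880 and 1670 CPM (4.29 ± 0.41 SE, adjusted p = 2.08e-05). Pnpla3 rose from 114 and 158 to 255 and 473 CPM (1.56 ± 0.39 SE, adjusted p = 0.0188). The calls of Pnpla3, Gpam and Mgll were each lost in 4 of 18 alternatives (adjusted p up to 0.322, 0.25 and 0.355), among them those without SAT at 2 months replicate 1, SAT at 2 months replicate 2 and SAT at 24 months replicate 2. That of G6pdx was lost without SAT at 2 months replicate 2 (2.1, adjusted p = 0.0659).

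Hormone genes also differed within members. Of 13 tested adipokines and secreted factors, 5 rose and 3 fell at 24 months. Lep, the satiety hormone leptin, went from 79.6 and 61.8 to 477 and 748 CPM (3.18 ± 0.41 SE, adjusted p = 0.000139). Sfrp5, a secreted Wnt inhibitor, and Mest, an imprinted gene tied to adipocyte growth, had no UMI in members at 2 months and a mean of 136 and 138 CPM at 24 months, which is at least 41.0-fold and 41.7-fold higher than the 3.31 CPM that 3 counts over that group would give. Irf4, a transcription factor of adipocytes and of lymphocytes, went from 268 and 687 to 0 and 6.81 CPM. B cell markers were lower at 24 months for 4 of 4 tested and T cell markers for 2 of 5, macrophage markers for 2 of 7 (Dock2 and Mertk), the FAP markers were higher for 2 of 10, smooth muscle or pericyte markers were higher for 2 of 5 (Acta2 and Rgs5) and lower for 1 (Cspg4) with a median log2 difference of 2.94, and the immediate early genes Fos and Jun rose; the part of other cells' RNA in the age difference was not tested.

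**Figure D5:**
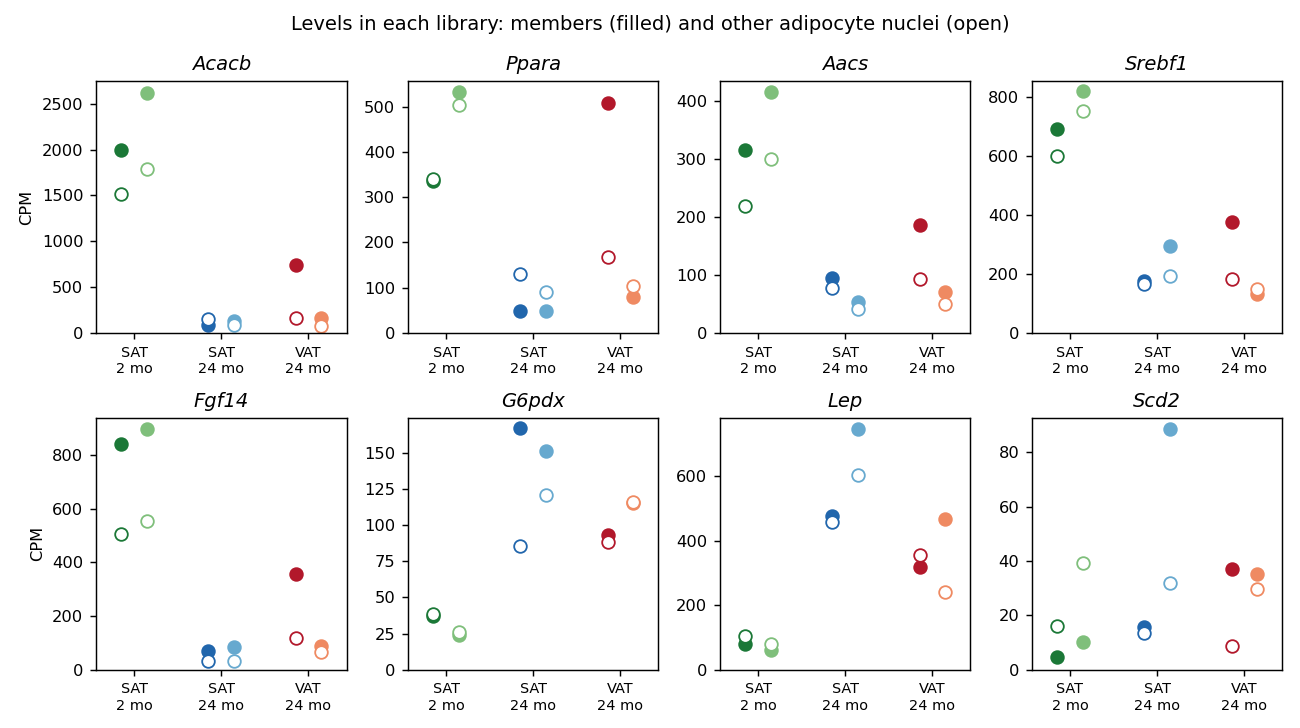
CPM (y axis, starting at 0) of 8 genes in each library, grouped by tissue and age (x axis), with members as filled and other adipocyte nuclei as open circles and replicate 1 to the left of replicate 2. Acacb, Ppara, Aacs, Srebf1 and Fgf14 were lower in both SAT libraries at 24 months than in both at 2 months, and G6pdx and Lep were higher, in members and in others. Scd2 passed the test of age in members and not in others, and its interaction did not pass (adjusted p = 0.102).

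Few genes were called between the depots, where the fit of members recovered 18% of 2-fold changes in simulated data. In members at 24 months, 2 of 8573 genes (0.0233%) were called higher in VAT than in SAT and 1 (0.0117%) lower, while 520 had an unadjusted p under 0.05. In other adipocyte nuclei, 7 of 12227 genes (0.0573%) were called higher and 10 (0.0818%) lower, so that 41.2% of the calls were higher, and 25.0% when scaled by library size. Aspg was at 7.96 and 3.1 CPM in SAT members and at 125 and 17.6 CPM in VAT members (log2 difference 4.64 ± 0.73 SE, adjusted p = 0.0327), and Mageb18, a gene of the MAGE family, was at 55.7 and 42.7 against 250.0 and 273 CPM (2.49 ± 0.40 SE, adjusted p = 0.0327). Rgs5, a pericyte gene, was at 39.8 and 163 CPM in SAT members and 4.18 and 8.81 CPM in VAT members (-4.65 ± 0.78 SE, adjusted p = 0.0327). Under the alternatives, the call was kept in 13 and lost in 5 for Aspg and for Mageb18. For Rgs5 it was kept in 10 and lost in 5. With the replicate number as a block, 0 genes were called in members and 35 in others, although the labels do not say that the numbers pair the libraries. Without SAT at 24 months replicate 1, which has 34 members, 325 genes were called in members, and leaving out SAT at 24 months replicate 2, SAT at 2 months replicate 2 or VAT replicate 2 gave 21, 15 and 29. With nuclei under 2% mitochondrial UMIs, 121 were called.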

How the data were processed

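Nuclei were captured with the Singleron GEXSCOPE kit and, per the study's methods, the authors aligned and counted reads with Celescope against GRCm39, and the deposited tables give, for each gene in each barcode, the raw count of UMIs, not normalized. The Celescope version, the gene annotation and the use of strand are not given in the sources used here. All 6 libraries were used (8061862 to 16226690 UMIs). Of 56980 genes listed, 293 share a symbol and were kept apart by identifier.

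Counts of members and of other adipocyte nuclei were summed per library, because nuclei are not replicates, and sums of under 20 nuclei were left out. With R 4.3.3 and edgeR 4.0.16, quasi-likelihood F tests (TMM scaling, filterByExpr, two-sided, Benjamini-Hochberg over all genes tested, called at an adjusted p under 0.05) compared members with others with the library as a block, the interaction of this difference with group, and groups within members and within others. DESeq2 1.42.0 was an alternative. The fits were tested on simulated data with known changes. Of simulated 2-fold changes, 83% were recovered for members against others, 21% for age within members and 18% for depots within members. Of simulated 4-fold changes, 100%, 92% and 96% were recovered in the same order. Shares were compared by exact permutation over libraries in Python 3.11.15 with scipy 1.17.1. Matched pairs lay within 10% in UMIs outside the selecting genes. Gene positions came from GENCODE on GRCm39. Scrublet (scanpy 1.11.5) marked 36 of 27074 nuclei (0.133%), too few to count as a working doublet call, so nuclei in the highest 6% of scores were also removed as an alternative.

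The members, gene lists and tests were chosen with earlier results of these data known. Genes named outside the lists were, per comparison and direction, the 10 with the largest fitted change among called genes with a mean of at least 20 CPM on the higher side and 1 direction in all libraries or groups that did not overlap, leaving out predicted and mitochondrial genes and the 16 genes of the rule. Genes of nuclei with 12 or more selecting UMIs were chosen after their values were seen.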

Additional observations from a re-analysis of the deposited data

Results flagged for a closer look

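In SAT, 8 genes had a member difference that differed between ages by the interaction test of edgeR. The 3 named by the rule were Dpt (log2 2.23), Lrp1b (log2 -2.01) and Atg4a (log2 -1.73). Under the alternatives the call was kept in 11 and lost in 8 for Dpt. It was kept in 8 and lost in 11 for Lrp1b, and kept in 10 and lost in 9 for Atg4a. DESeq2 called 0 genes in this interaction. For Dpt, both SAT libraries at 2 months had members below the other adipocyte nuclei and both at 24 months had members above them. Genes were named only where this difference did not overlap between the groups, so that separation is no added support. At 24 months the log2 difference of members from others was higher in VAT than in SAT by the same test for Ppara (log2 2.21) and Acacb (log2 1.65), and neither was called without VAT replicate 1.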

How the results depend on the processing

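With 2 libraries per group no share difference can pass the test. That in SAT was negative under all alternatives run, at -11.4 percentage points after thinning and from -26.8 to -11.9 when single libraries were left out, and the depot difference ranged from -1.64 to 13.2. The 121 calls of members against others became 60 with DESeq2, which gave no adjusted p for 50 of them, 204 with members chosen by the highest share of UMIs, 77 in matched pairs, 74 with members chosen by Fasn, Acly and Elovl6 alone and 65 without members of 12 or more UMIs, and ranged from 30 to 134 without single libraries. Alternatives by 3 genes, by 4 to 11 UMIs, under 2% mitochondrial UMIs and by Scrublet scores were chosen after seeing the data. The 8 calls of the age interaction became 4 with 0 UMIs of the exclusion genes, 0 with DESeq2, 1 in matched pairs, 0 by the 3 genes, 4 at a threshold of 3 and 62 at 6 UMIs, and ranged from 0 to 17 without single libraries. The 5 of the depot interaction became 0 with DESeq2, 2 in matched pairs, 3 and 50 at thresholds of 3 and 6 UMIs, 15 under 2% mitochondrial UMIs and 2 at 4 to 11 UMIs, with 0 to 21 without single libraries. Within members, the 630 age calls became 363 with DESeq2, 1345 at 6 UMIs and 1289 under 2% mitochondrial UMIs, with 193 to 1149 without single libraries. The 3 depot calls became 41 with 0 exclusion UMIs, 1 without the highest Scrublet scores, 5 by the 3 genes, 42 with no filter on low counts, 1 and 543 at 3 and 6 UMIs, 121 under 2% mitochondrial UMIs and 1 at 4 to 11 UMIs, with 2 to 325 without single libraries. In other adipocyte nuclei, the 1283 age calls became 2705 at 6 UMIs, with 382 to 1695 without single libraries, and the 17 depot calls became 89 with 0 exclusion UMIs, 34 with DESeq2, 27 without the highest Scrublet scores, 120 with no filter, 650 at 6 UMIs and 242 under 2% mitochondrial UMIs, with 16 to 90 without single libraries. At 6 UMIs, SAT at 24 months replicate 1 and VAT replicate 2 had under 20 members and dropped out, so that every count given there compares 1 library per group at 24 months; a lone library is assumed to vary like the other groups, here and where single libraries were left out. The cause of the other changes was not tested.

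The labels do not say that replicate numbers pair the libraries, and deviations from group means correlated across genes at -0.083 and 0.038 for SAT at 2 months with SAT and VAT at 24 months and at 0.125 for SAT with VAT at 24 months, so whether numbers mark shared mice there is not known. With a replicate block, the depot calls were 0 in members and 35 in other adipocyte nuclei. Without the block by library, the members against others gave 0 calls. All 121 genes kept their direction, which the use of the same sums in both fits made nearly certain.

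For single genes, 1127 of 1481 results under alternatives kept direction and side of the threshold, 327 lost the call and 19 reversed. The age interaction of Pcdh15 became -1.1 without the highest Scrublet scores, -0.92 at 4 to 11 UMIs, -0.6 at 6 UMIs, -0.29 under 2% mitochondrial UMIs and -0.93 without SAT at 24 months replicate 1, and that of Csmd1 -0.9, -0.92, -0.37, -2.39 and -0.54. The depot interaction of Pcdh15 became 1.02, 0.67, 0.92, 0.43 and 0.78 in the same order, that of Csmd1 0.45, 0.04 and 1.98 in the first, the second and the fourth of these settings, and that of Acss2 -0.73 without VAT replicate 1. Over all single libraries left out, the age interaction ranged from -0.93 to 5.58 for Pcdh15 and from -0.54 to 4.79 for Csmd1, and the depot interaction from -5.69 to 0.78 for Pcdh15 and from -0.73 to 1.8 for Acss2. Values under 20 CPM in the libraries of 34 and 28 members rest on few UMIs.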
